A study of Mus musculus with 8 samples.

Results

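The 10 genes of iron and heme regulation described here were chosen by name and matched by their Ensembl identifiers. They are the hepcidins Hamp and Hamp2, transferrin (Trf), the transferrin receptors Tfr2 and Tfrc, ferroportin (Slc40a1), the ferritin chains Fth1 and Ftl1, and the 5-aminolevulinate synthases Alas1 and Alas2. All 10 were present among the 14317 mouse genes of a table of 14371 features, and 10 of 10 passed the filter on low values. RNA-seq was performed on whole livers of female mice fed a Western diet (WD), 4 with an empty pellet (Con-Veh) and 4 with a 10 mm pellet releasing dihydrotestosterone (Con-DHT), an androgen that is not converted to estrogen. Diet and pellet lasted 8.5 weeks. The labels give the genotype of all mice as WT, and they served as the study's controls (Con). They received the pellet at 7 weeks of age, kept their ovaries and were fasted overnight at the endpoint. Each library came from a single mouse, and the strain was not given in the sources used here.

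The liver sets the iron supply of the body. Hepatocytes secrete hepcidin, which binds ferroportin, the iron exporter, and has it degraded, so that less iron enters the blood from the gut and from the macrophages that recycle red cells. Hepcidin transcription follows iron through bone morphogenetic proteins (BMPs) made by sinusoidal endothelial cells and inflammation through interleukin-6 and STAT3. Transferrin carries iron in blood, ferritin stores it in cells, and the ALA synthases start heme synthesis, Alas1 in every tissue and Alas2 in developing red cells. Inside cells, iron regulatory proteins bind a hairpin called the iron responsive element (IRE) when iron is scarce. They block translation when it lies in the 5′ UTR and stabilise the mRNA when it lies in the 3′ UTR.

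The IREs were looked for in GENCODE M21 transcripts (GRCm38) as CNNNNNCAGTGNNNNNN or CNNNNNCAGAGNNNNNN, on the transcribed strand only, with the 5 bases before the loop pairing with the 5 after it and G-T pairs allowed. At least 1 match was found in 621 of 21901 protein-coding genes (2.84%), and in 5 of these 10. They are shown because they separate the members whose mRNA level the iron regulatory proteins can reach from those they reach through translation. The loop is in capitals.

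Fth1, 5′ UTR, chr19:9982738-9982754, plus strand: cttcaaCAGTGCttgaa

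Ftl1, 5′ UTR, chr7:45459785-45459801, minus strand: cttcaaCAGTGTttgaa

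Slc40a1, 5′ UTR, chr1:45925471-45925487, minus strand: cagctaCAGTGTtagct

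Alas2, 5′ UTR, chrX:150547464-150547480, plus strand: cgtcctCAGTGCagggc

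Tfrc, 3′ UTR, chr16:32631166-32631182, plus strand: cagtgaCAGAGTtcact

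Tfrc, 3′ UTR, chr16:32631225-32631241, plus strand: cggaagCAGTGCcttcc

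Tfrc, 3′ UTR, chr16:32631604-32631620, plus strand: cgggagCAGTGTcttcc

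Tfrc, 3′ UTR, chr16:32631669-32631685, plus strand: cggagaCAGTGAtctcc

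Tfrc, 3′ UTR, chr16:32631716-32631732, plus strand: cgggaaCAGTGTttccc

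The printed sites of each gene come from a single transcript. In that transcript Tfrc held 5 such sites, all in its 3′ UTR, and the other genes held 1 each. Any match in other transcripts of Fth1 is not counted here. No match was found in transcripts of Hamp, Hamp2, Trf, Tfr2 or Alas1, which says only that these letters are not there.

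The hepcidin copies lie close together on the minus strand of chromosome 7, Hamp at 30942368 to 30944032 and Hamp2 at 30922372 to 30924681 (GRCm38). Their promoters are printed because the balance between the copies varied from mouse to mouse, as given below. Neither copy passed the main test between groups, and their ratio did not pass its own. The 150 bases before each start come from RefSeq (GRCm38.p6). For Hamp2 the RefSeq start differs from the end of the GENCODE span given above, and the printed bases lie inside that span. Positions below count back from the RefSeq start. Capitals mark GGCGCC, the core of a BMP-responsive element, and TTCNNNGAA, the palindrome bound by STAT proteins, both searched on both strands and not overlapping.

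Hamp, chr7:30944030-30944179, minus strand: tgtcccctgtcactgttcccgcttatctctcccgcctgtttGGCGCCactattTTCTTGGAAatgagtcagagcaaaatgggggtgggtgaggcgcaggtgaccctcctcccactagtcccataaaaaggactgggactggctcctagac

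Hamp2, chr7:30924182-30924331, minus strand: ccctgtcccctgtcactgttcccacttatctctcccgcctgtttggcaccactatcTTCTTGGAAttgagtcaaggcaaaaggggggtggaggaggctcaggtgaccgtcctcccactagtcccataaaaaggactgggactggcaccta

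The stretches aligned with 135 of 153 positions identical (88.2%). GGCGCC stood at -109 to -104 of Hamp, counted back from the start, and the letters aligned with it in Hamp2 read GGCACC. TTCTTGGAA stood in both, at -97 to -89 of Hamp and at -94 to -86 of Hamp2. Over 32851 promoter windows of 150 bases, 7.01% held GGCGCC and 4.09% held TTCNNNGAA. A match is a description of the sequence and not evidence of binding.

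Between 13123962 and 17815944 reads fell on mouse genes in each library. The hepatocyte markers Alb, Ttr and Apoa1 and the other 7 of that list were all present, as the tissue label gives. Libraries Con-Veh 1 and Con-Veh 2 stood apart in 18 acute phase genes, the serum proteins that liver makes in inflammation, with summed values of 677144 and 674859 against 315988 to 331212 in the other Con-Veh livers and 242101 to 339561 in Con-DHT. Results that rest on this pair are given below also without it. The skeletal muscle genes (Ckm, Myh4 and Acta1) summed to 1491 in Con-DHT 3, 695 in Con-DHT 4 and 169 in Con-Veh 2, and to at most 24.2 elsewhere. Libraries of the same group came from separate mice, and no batch was given for them.

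Across the 14312 genes tested with limma on log2(value + 1), 1032 passed an adjusted p of 0.05, which is 7.21%, with 658 higher and 374 lower in Con-DHT. Of the 10 iron and heme genes, 1 passed, Trf, which was lower, beside 2.61% of all genes called lower. The other 9 did not pass. At an unadjusted p of 0.05, 4 of the 10 would pass (Trf, Hamp2, Alas2 and Slc40a1), beside 23.2% of all genes. On the read counts, edgeR called 1 of the 10, Trf, beside 7.15% of all genes, and DESeq2 called these 4 beside 11.0% of all genes. In 8 of the 10 the estimated change was negative, and only Alas1 and Alas2 had positive estimates. The median log2 change of the 10 was -0.25, beside -0.0081 over all genes tested. When each library was scaled by its spike-in RNA, which moved the median of all genes to 0.19, the median of the 10 was -0.053, 6 estimates were negative, and those of Tfrc and Fth1 changed sign. Relative to the median of all genes, the median of the 10 was then -0.24. Spike-in RNA took 1.68% to 3.61% of the counted reads in Con-Veh libraries and 2.22% to 2.75% in Con-DHT libraries.

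**Figure D1:**
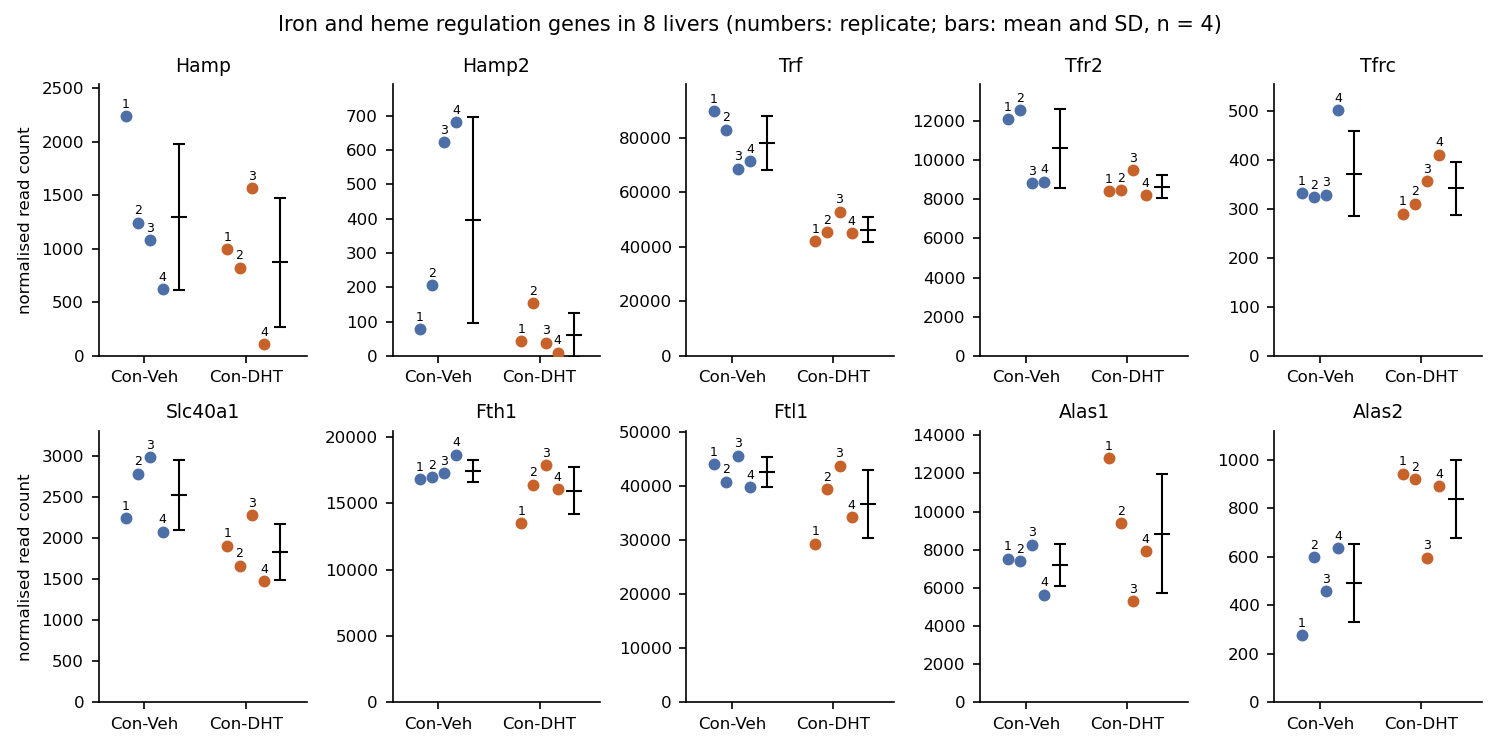
Normalised read counts (vertical axis, linear from 0) of the 10 genes in each of 4 Con-Veh and 4 Con-DHT livers, with the replicate number above each point and the mean and SD beside each group (the Hamp2 bar of Con-DHT is cut at 0). Trf is the gene whose groups do not overlap, with Con-Veh at 68736 or more and Con-DHT at 52919 or less.

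**Figure D2:**
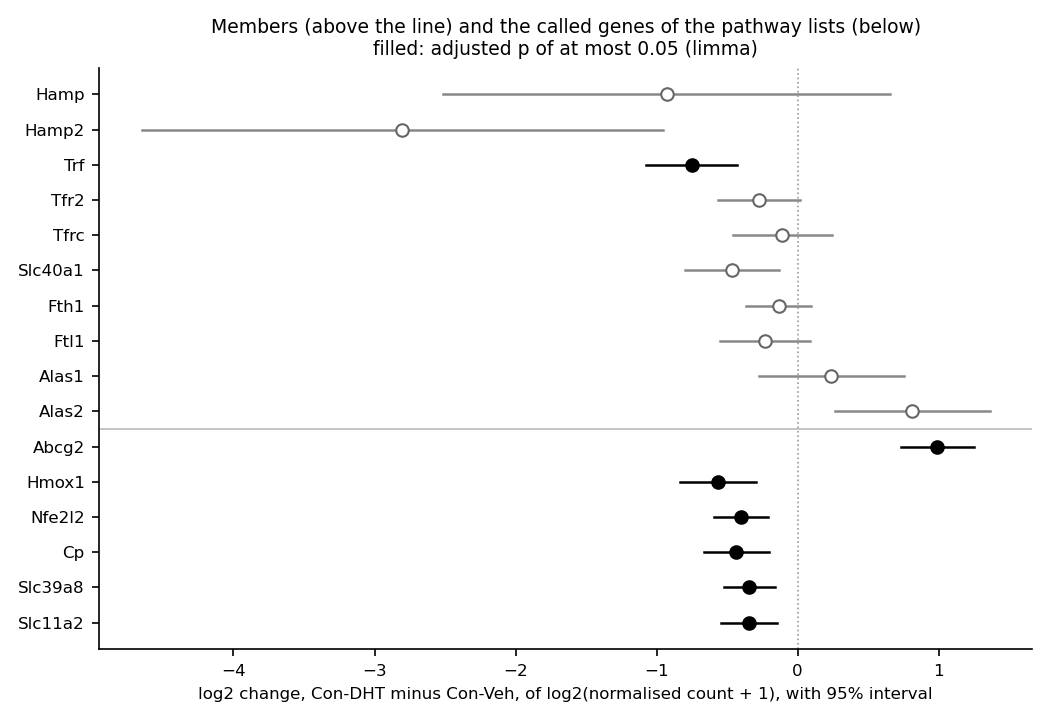
Change from Con-Veh to Con-DHT on the log2(value + 1) scale (horizontal axis) with 95% intervals from limma, for the 10 genes above the line and the 6 called genes of the surrounding pathway lists below it; filled points passed an adjusted p of 0.05. The intervals of Hamp (-2.52 to 0.66) and Hamp2 (-4.65 to -0.96) are the widest shown.

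Compared per kilobase of transcript, the ferritins and transferrin led the group of genes. In Con-Veh the levels per kilobase were 44000.0 ± 2836 for Ftl1, 30434 ± 3841 for Trf and 18758 ± 916 for Fth1 (SD, n = 4). Tfr2 at 3623 ± 687, Alas1 at 3386 ± 521 and Hamp at 3167 ± 1665 followed and did not differ beyond their spread. Hamp2 at 946 ± 715 and Slc40a1 at 749.9 ± 128 did not differ beyond their spread either. Alas2 at 242 ± 79.5 and Tfrc at 76.1 ± 17.8 were lowest. In Con-DHT Ftl1 led at 37927 ± 6473 per kilobase, and Trf at 18023 ± 1808 and Fth1 at 17176 ± 1938 followed and did not differ beyond their spread. Alas1 at 4157 ± 1469.7, Tfr2 at 2956 ± 197 and Hamp at 2135 ± 1466 came next and did not differ beyond theirs. Slc40a1 at 544 ± 103 and Alas2 at 411 ± 79.5 did not differ beyond their spread, nor did Hamp2 at 146 ± 151 and Tfrc at 69.9 ± 10.9. Spread here is the SD between livers. These levels were not compared gene against gene within each liver, so nothing is said of differences within a liver.

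Hamp encodes the hepcidin that binds ferroportin, and its level varied widely among the livers of each group. It was 2243, 1247, 1082 and 622 in Con-Veh and 997, 826, 1569 and 109.8 in Con-DHT. The groups overlapped, and the lowest value, that of Con-DHT 4, was the thinnest in reads of the 8. Means were 1298 ± 683 in Con-Veh and 875 ± 601 in Con-DHT (SD, n = 4), a log2 change of -0.93 (SE 0.71, limma adjusted p = 0.48). The SD within groups, 1.31 on the log2 scale, exceeded that of 99.4% of genes, and without Con-DHT 4 it was 0.66 and exceeded that of 94.6%. Leaving out Con-DHT 4 brought the estimate to -0.10 (adjusted p = 0.91), and leaving out both high acute phase libraries brought it to -0.42 (adjusted p = 0.85).

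Hamp2, whose product resembles hepcidin but does not share its established role in iron control, gave the largest estimate of the 10. Its level was 78.1, 206, 623 and 682 in Con-Veh and 43.2, 154, 38.8 and 9.78 in Con-DHT. Con-Veh 3 and Con-Veh 4 stood above every other liver, and Con-Veh 1 and 2 lay in or near the range of Con-DHT. Means were 397 ± 300.5 in Con-Veh and 61.4 ± 63.4 in Con-DHT (SD, n = 4), a log2 change of -2.80 (SE 0.83, limma adjusted p = 0.073 at an unadjusted p of 0.0069). The difference therefore did not pass the threshold. It passed with DESeq2 (adjusted p = 0.042), without Con-Veh 1 (adjusted p = 0.033), without Con-DHT 2 (adjusted p = 0.038) and without both high acute phase libraries (log2 change -3.98, adjusted p = 0.039), and edgeR gave an adjusted p of 0.064. The other 6 fits with 1 library left out gave adjusted p from 0.12 to 0.17, the last without Con-Veh 4 (log2 change -2.39), and a fit without the intensity trend gave 0.13. Spike-in scaling also called it. The prior degrees of freedom of that fit were infinite. Every p in it, of calls gained or lost, therefore rests on the trend over all genes and not on the gene's own spread.

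**Figure D3:**
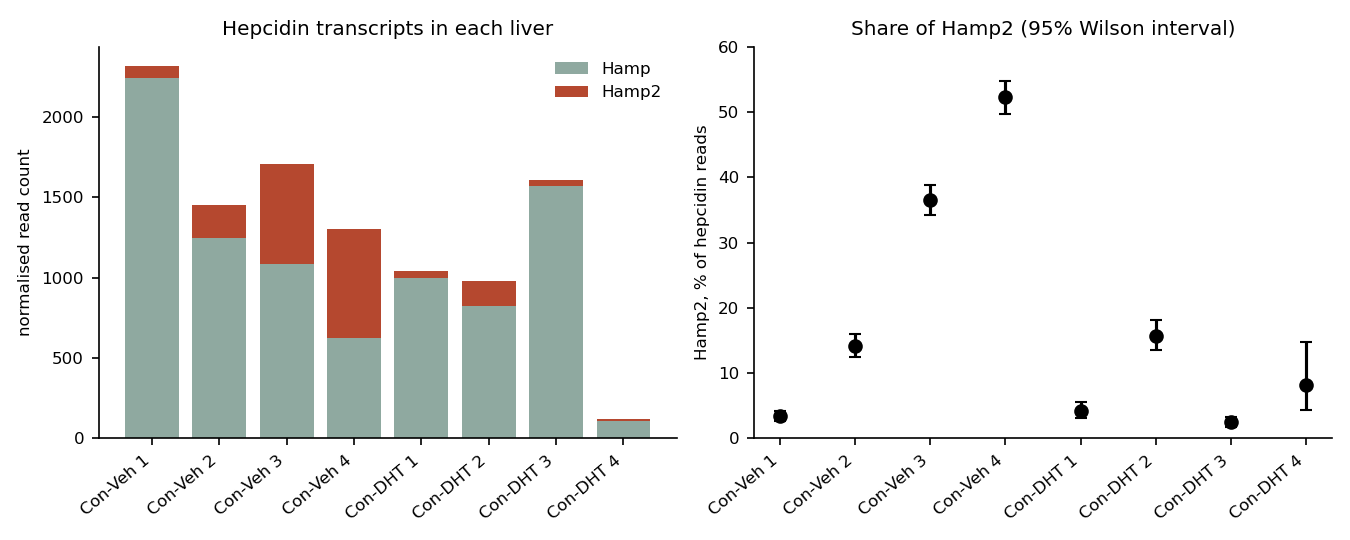
Left, normalised read counts of Hamp and Hamp2 stacked for each liver (linear axis from 0). Right, Hamp2 as a percentage of the reads on both genes, with 95% Wilson intervals that cover counting error only; the share runs from 3.36% to 52.3% among Con-Veh livers and from 2.41% to 15.7% among Con-DHT livers.

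The balance between the hepcidin copies varied from mouse to mouse. In Con-Veh, Hamp2 made up 3.36% of the hepcidin reads (95% Wilson interval 2.68 to 4.22), 14.2% (12.5 to 16.01), 36.5% (34.3 to 38.8) and 52.3% (49.8 to 54.8). The intervals cover counting error only and none of them overlap, so these 4 livers differed from each other by more than counting error. Their order by Hamp was the reverse of their order by Hamp2, and Con-Veh 4 held slightly more Hamp2 than Hamp. In Con-DHT the share was 4.15% (3.11 to 5.53), 15.7% (13.6 to 18.1), 2.41% (1.76 to 3.29) and 8.18% (4.36 to 14.8). The mean log2 ratio of Hamp2 to Hamp was -2.02 ± 2.19 in Con-Veh and -3.89 ± 1.27 in Con-DHT (SD, n = 4), a difference of -1.87 that did not pass an exact two-sided permutation test (p = 0.2, 0.31 adjusted over 2 ratios, with 0.029 the smallest p that 70 arrangements allow). Summed over both genes, the hepcidin transcripts were 2321, 1452, 1705 and 1305 in Con-Veh and 1039.9, 980.3, 1607 and 119.6 in Con-DHT, with overlap through Con-DHT 3 alone. The transcripts share 388 of 420 aligned bases (92.4%), with an identical run of 87 bases.

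The genes most like the hepcidins in pattern were sought among 10724 genes with a mean of at least 50, over all 8 libraries and so over both groups together. For Hamp they were Akna (Pearson r = 0.97), Uba2 (0.96) and Impa1 (0.95), and for Hamp2 they were Mrpl46 (0.98), Itm2b (0.97) and Gpr182 (0.97). None of these 6 passed the test between groups. Hamp2 itself ranked 2173 in likeness to Hamp (r = 0.41), and Hamp ranked 2762 in likeness to Hamp2. The points share their libraries and their 2 groups.

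No gene of the pathway from BMPs to hepcidin passed the test, 0 of 22 measured, beside 7.21% of all genes, and equal totals without Mup genes called 1 as higher (Neo1, a gene named after its values were seen). The median log2 change of the list was -0.033. Relative to the median of all genes it was -0.025, and it was -0.023 with spike-in scaling and -0.025 with equal totals without Mup genes. The ligand Bmp6 was 54.5 ± 4.81 in Con-Veh and 71.6 ± 16.8 in Con-DHT (log2 change 0.36, limma adjusted p = 0.27), and the ligand Bmp2 was 211 ± 42.4 and 206 ± 30.3 (-0.030, adjusted p = 0.93). Tmprss6, the protease that dampens BMP signalling by cleaving hemojuvelin, was 10041 ± 243 and 8503 ± 606 (-0.24, adjusted p = 0.097), without overlap between groups, beside 6.62% of all genes not overlapping in that direction. DESeq2 called Tmprss6 (adjusted p = 0.016). With 1 library left out it passed in 0 of 8 fits (limma adjusted p from 0.13 to 0.20), and over the other alternatives its estimates ran from -0.26 to -0.043. Neo1 went the other way, at 316 ± 33.1 and 405 ± 42.3 (0.35, limma adjusted p = 0.077). It did not overlap between groups, beside 8.49% of all genes in that direction, and DESeq2 called it too. The co-receptor hemojuvelin (Hjv) had a log2 change of -0.0034 (adjusted p = 0.99) and the sensor Hfe one of -0.16 (adjusted p = 0.30).

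The target genes through which BMP signalling can be read did not pass either. Id1 had a log2 change of 0.0021 (limma adjusted p = 1.00), Smad7 one of -0.12 (adjusted p = 0.76), Smad6 one of -0.11 (adjusted p = 0.74) and Atoh8 one of -0.28 (adjusted p = 0.28). Under spike-in scaling the estimates of Smad6 and Smad7 were positive and below the median of all genes, which moved with them. These transcripts are targets in hepatocytes and in endothelial cells alike, and whole liver does not separate them.

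On the inflammatory side, 0 of 9 listed genes passed, beside 7.21% of all genes (median log2 change -0.061). The list holds genes of interleukin-6 and STAT3 signalling and other inputs to hepcidin. DESeq2 called Stat3 (limma log2 change -0.59) and Creb3l3 (0.24), and equal totals without Mup genes called Creb3l3. Stat3 was 2719, 2753, 1433 and 1418 in Con-Veh, highest in Con-Veh 1 and Con-Veh 2, and 1299, 1312, 1484 and 1178 in Con-DHT. Socs3, the feedback inhibitor that STAT3 induces, had a log2 change of -0.32 (limma adjusted p = 0.65). Of 18 acute phase genes, 1 passed, the lower Cp, beside 2.61% of all genes, while all 18 estimates were negative with a median of -0.89. Spike-in scaling, in the fit whose p-values rest on the trend over all genes, called 6 of the 18 as lower. Equal totals without Mup genes called 0. On the read counts, DESeq2 called Apcs, Crp, Fga, Fgb, Fgg, Lcn2 and Saa3 besides Cp, all lower, beside 11.0% of all genes called. With edgeR the calls were Apcs, Fga, Fgg and Cp, all lower, beside 7.15% of all genes called. Of the 18, 4 lay lower in Con-DHT without overlap, beside 6.62% of all genes. Without Con-Veh 1 and Con-Veh 2 the median was -0.31, 14 of the 18 were negative, none passed, and the serum amyloid gene Saa1 turned from -1.38 (adjusted p = 0.58) to 1.16 (adjusted p = 0.50). Lcn2, which binds bacterial iron carriers, had a log2 change of -2.49 (adjusted p = 0.16), and of -0.61 without Con-Veh 1 and Con-Veh 2. Con-Veh 1 and Con-Veh 2 were also the Con-Veh livers with the most Hamp and the least Hamp2, and the part of the acute phase in either gene was not tested.

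Transferrin, the iron carrier of blood and the product of an abundant hepatocyte mRNA, was lower in Con-DHT. Trf (chromosome 9, 103204001 to 103230444, minus strand, GRCm38) was 89813, 82969.6, 68736 and 71462 in Con-Veh and 41997, 45476, 52919 and 44955 in Con-DHT. Every Con-DHT liver lay below every Con-Veh liver, beside 6.62% of genes not overlapping in that direction. Means were 78245 ± 9875 and 46337 ± 4648 (SD, n = 4), so that Con-DHT livers held 40.8% less. The log2 change was -0.75 (SE 0.15, limma adjusted p = 0.013), and Trf ranked 436 among all genes by p.

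Trf passed in 8 of 8 fits that left out 1 library, with adjusted p between 0.018 and 0.045, and with edgeR and DESeq2. The higher Con-Veh values were those of Con-Veh 1 and Con-Veh 2, the livers with high acute phase sums, and without them the log2 change was -0.60 (adjusted p = 0.087), which no longer passed. Under spike-in scaling it was -0.55 (adjusted p = 0.67), where the median of all genes was 0.19 instead of -0.0081. That p also rests on the trend over all genes and not on the spread of Trf.

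The transferrin receptors did not pass. Tfr2, the hepatocyte receptor that senses transferrin saturation and feeds into hepcidin control (chromosome 5, 137569840 to 137587481, plus strand), was 12104, 12565, 8831 and 8904 in Con-Veh and 8433, 8468, 9498 and 8199.6 in Con-DHT. The Con-Veh livers split into a higher pair, Con-Veh 1 and 2, and a lower pair that lay within or near the Con-DHT range. Means were 10601 ± 2011 and 8649.6 ± 578 (SD, n = 4), with a log2 change of -0.28 (SE 0.13, limma adjusted p = 0.24) that came to -0.038 without the high acute phase libraries (adjusted p = 0.88). Tfrc, the receptor that takes up iron-loaded transferrin and the member with IREs in its 3′ UTR (chromosome 16, 32608920 to 32632794, plus strand), was 332, 324, 329 and 502 in Con-Veh and 290.4, 311, 356 and 411 in Con-DHT. A single liver, Con-Veh 4, stood above its group, and the groups overlapped. Its log2 change was -0.11 (SE 0.16, 95% interval -0.46 to 0.25, limma adjusted p = 0.74), and 0.045 without Con-Veh 4.

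Ferroportin, the exporter that hepcidin acts on, was measured at 2248, 2790.1, 2988 and 2083 in Con-Veh and at 1909, 1666, 2281 and 1481 in Con-DHT (Slc40a1, chromosome 1, 45908068 to 45926523, minus strand). Con-DHT 3 alone lay within the Con-Veh range. Means were 2527 ± 431 and 1834 ± 346 (SD, n = 4), with a log2 change of -0.47 (SE 0.15, 95% interval -0.80 to -0.13, limma adjusted p = 0.095). It passed with DESeq2 (adjusted p = 0.044) and without Con-DHT 3 (adjusted p = 0.046), and did not pass with spike-in scaling (log2 change -0.27, adjusted p = 0.92). Macrophages are rich in ferroportin. All 12 Kupffer cell and macrophage markers had negative estimates, 8 of the 12 passed as lower, beside 2.61% of all genes, none was at 0, and their sums were 9300 to 11245 in Con-Veh and 6220 to 8374 in Con-DHT. Without Con-Veh 1 and 2, 1 of the 12 passed. With equal totals without Mup genes 6 passed, with quantile normalization 7 and with spike-in scaling 0. Their part in the Slc40a1 values was not tested, and in whole liver fewer cells of a type and less RNA per cell cannot be told apart.

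**Figure D4:**
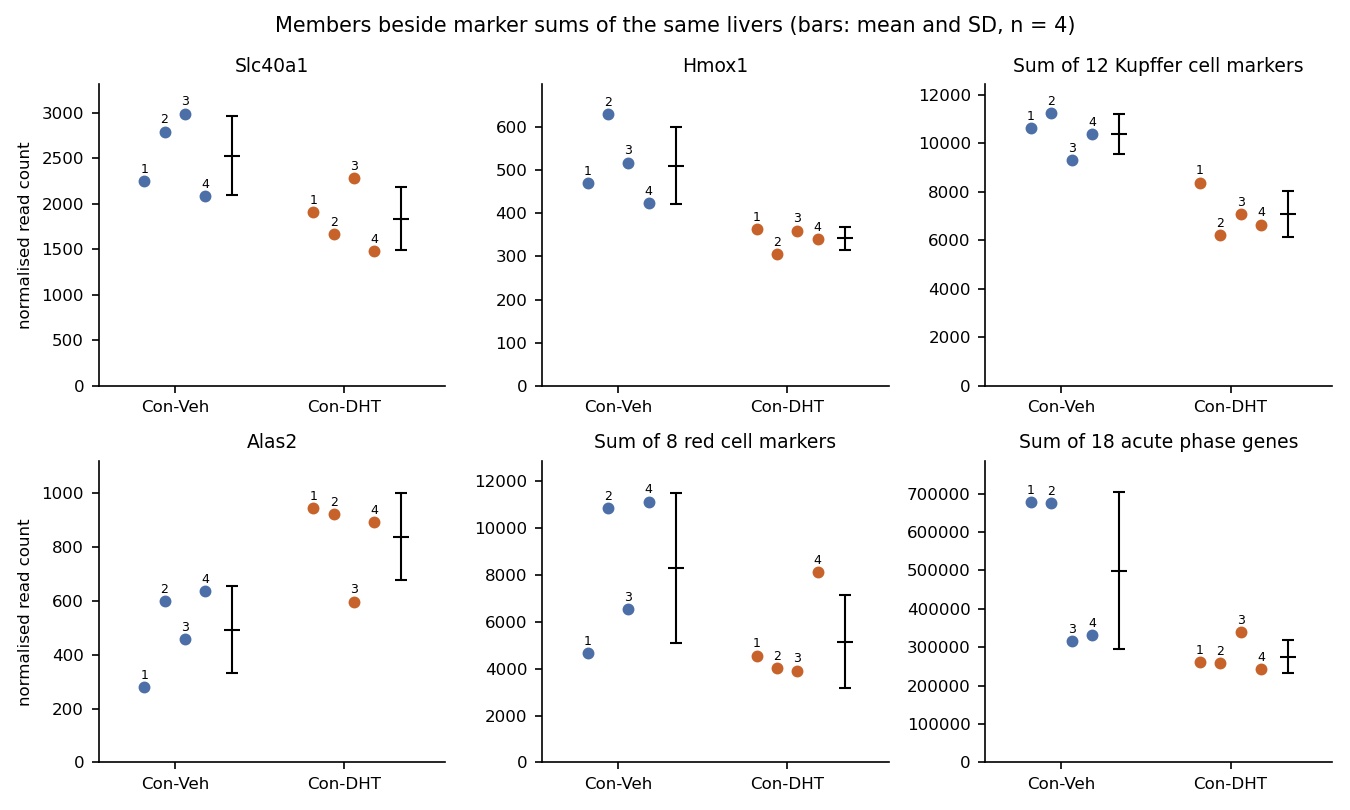
Normalised read counts of Slc40a1, Hmox1 and Alas2 beside the summed counts of Kupffer cell markers, red cell markers and acute phase genes in each liver (linear axes from 0, replicate numbers above the points, mean and SD beside them). The Kupffer cell sums do not overlap between groups, the red cell sums do, and Con-Veh 1 and 2 stand apart in the acute phase sum.

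The ferritin chains, whose IREs act on translation, gave no mRNA difference past the test. Fth1, the heavy chain that oxidises iron (chromosome 19, 9980598 to 9985098, plus strand), was 16807, 16948, 17281 and 18667 in Con-Veh and 13517, 16400.1, 17844 and 16063 in Con-DHT. Its log2 change was -0.13 (SE 0.10, 95% interval -0.36 to 0.098, limma adjusted p = 0.49), and spike-in scaling turned it to 0.066. Ftl1, the light chain that helps nucleate the iron core (chromosome 7, 45457944 to 45459884, minus strand), was 44037, 40849, 45694 and 39788 in Con-Veh and 29377, 39422, 43818 and 34235 in Con-DHT. The groups overlapped for both, and Con-DHT 1 was lowest for both. The Ftl1 log2 change was -0.23 (SE 0.14, 95% interval -0.55 to 0.091, limma adjusted p = 0.38). The mean log2 ratio of Fth1 to Ftl1 was -1.29 ± 0.14 in Con-Veh and -1.19 ± 0.10 in Con-DHT (SD, n = 4), which did not pass an exact two-sided permutation test (difference 0.095, p = 0.31). The pseudogene Ftl1-ps1 shares an identical run of 149 bases with Ftl1 and was the only ferritin copy of 7 listed that was in the table, at 94.8 ± 15.98 and 79.8 ± 13.9.

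Alas1, the housekeeping enzyme that sets the rate of heme synthesis in liver (chromosome 9, 106233455 to 106248654, minus strand), was 7527, 7399.5, 8261 and 5645 in Con-Veh and 12794, 9399, 5294 and 7918 in Con-DHT. Con-DHT 1 was the highest and Con-DHT 3 the lowest of all 8 livers. The log2 change was 0.24 (SE 0.23, 95% interval -0.28 to 0.75, limma adjusted p = 0.59). Ppargc1a, the coactivator that raises Alas1 in fasting, had a log2 change of -0.13 (adjusted p = 0.84), which turned to 0.069 with spike-in scaling.

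Alas2, the form of developing red cells (chromosome X, 150547375 to 150570638, plus strand), was 278, 599, 457 and 634 in Con-Veh and 943, 920.3, 597 and 891 in Con-DHT. Con-DHT 1, 2 and 4 lay above all of Con-Veh, and Con-DHT 3 lay within the Con-Veh range. Means were 492 ± 162 and 838 ± 162 (SD, n = 4), with a log2 change of 0.81 (SE 0.25, 95% interval 0.26 to 1.36, limma adjusted p = 0.078). It passed with DESeq2 (adjusted p = 0.018) and in none of the fits that left out a library (adjusted p from 0.052 to 0.17). Spike-in scaling also called it, in the fit with infinite prior degrees of freedom, so that its p there rests on the trend over all genes. Of 8 red cell and erythroid markers measured, none passed, beside 7.21% of all genes. Of these 8, 6 had estimates of the opposite sign to Alas2. Their median log2 change was -0.68, and the sums were 4665 to 11119 in Con-Veh and 3910 to 8109 in Con-DHT. Ahsp, Epb42 and Gata1 of that list were not in the table. Alas1 and Alas2 transcripts are 61.6% identical when aligned, with no identical run longer than 20 bases.

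None of the 13 further genes of heme synthesis passed, beside 7.21% of all genes. Of the 4 positive and 9 negative estimates, Alad, which forms porphobilinogen (log2 change -0.073, limma adjusted p = 0.61), and Fech, which inserts the iron (0.033, adjusted p = 0.88), were near 0. Alad turned to a positive estimate under spike-in scaling. Cpox was 3439 ± 283 in Con-Veh and 4235 ± 383 in Con-DHT (log2 change 0.30, limma adjusted p = 0.076). It was called with quantile normalization, with equal totals without Mup genes and with DESeq2. The median of the list was -0.13.

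Genes of heme breakdown, transport and scavenging held 3 of the 6 calls made in the pathway lists. Of 15 measured, 1 was higher and 2 were lower, beside 4.60% and 2.61% of all genes. Abcg2, an exporter of porphyrins, heme and many drugs, was 346, 368, 381 and 379 in Con-Veh and 838, 727, 576 and 822 in Con-DHT. Every Con-DHT liver lay above every Con-Veh liver, beside 8.49% of all genes not overlapping in that direction. Means were 368 ± 15.9 and 741 ± 120.4 (SD, n = 4), a log2 change of 0.99 (SE 0.12, limma adjusted p = 0.0010), and it passed in all 21 alternatives.

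Hmox1, the heme oxygenase that frees iron from heme, was 469, 630.2, 517 and 423 in Con-Veh and 363, 305, 359 and 340.2 in Con-DHT. The groups did not overlap, beside 6.62% of all genes not overlapping in that direction. The log2 change of Hmox1 was -0.56 (SE 0.12, limma adjusted p = 0.021). It is abundant in Kupffer cells, whose marker sums differed as given above, and their part in it was not tested. It did not pass without Con-Veh 3 (adjusted p = 0.051), without Con-DHT 2 (0.062), without Con-Veh 1 and 2 together (0.0995), with equal totals without Mup genes (0.051) or under spike-in scaling (0.87). Nfe2l2, a transcription factor that activates Hmox1 and the ferritin genes, was 984 ± 68.1 and 745 ± 68.3 (log2 change -0.40, SE 0.086, adjusted p = 0.021), and did not pass without Con-Veh 3 (0.053), without Con-Veh 4 (0.065), without the intensity trend (0.052), with equal totals without Mup genes (0.059) or under spike-in scaling (0.93). Neither Hmox1 nor Nfe2l2 passed with the replicate number as a block. The scavengers Hpx, which binds heme (-0.89, adjusted p = 0.11), and Hp, which binds hemoglobin (-0.56, adjusted p = 0.31), did not pass, and both are acute phase proteins. Without Con-Veh 1 and 2 the log2 change was -0.33 for Hpx and -0.024 for Hp.

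**Figure D5:**
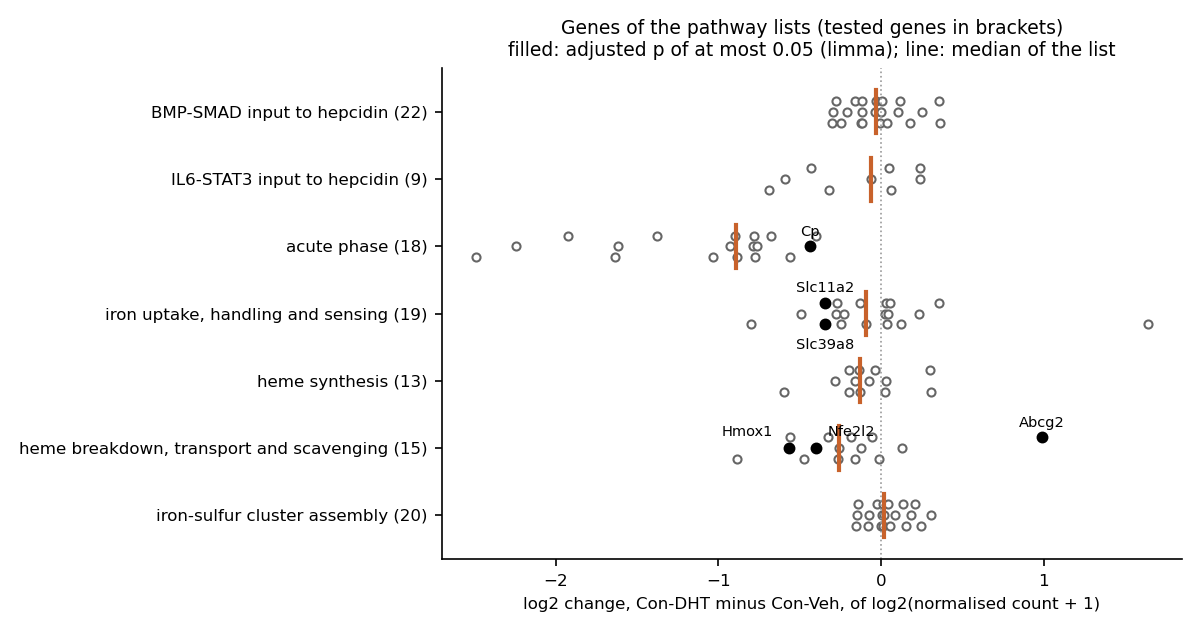
Change from Con-Veh to Con-DHT on the log2(value + 1) scale (horizontal axis) of every tested gene in 7 pathway lists, 1 point per gene, with the list median as a vertical line and genes that passed an adjusted p of 0.05 filled and named. The acute phase list has the lowest median, -0.89, and holds 1 called gene, Cp.

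In iron uptake, handling and sensing, 2 of 19 measured genes passed, both lower, beside 2.61% of all genes. Equal totals without Mup genes called 2 higher and none lower, and quantile normalization called 1 in each direction. Slc11a2, the transporter DMT1 that moves iron out of endosomes, was 708 ± 46.5 in Con-Veh and 559 ± 57.5 in Con-DHT (log2 change -0.34, SE 0.089, limma adjusted p = 0.046). Slc39a8, the importer ZIP8 of manganese, zinc and iron, was 478 ± 37.3 and 377 ± 15.4 (log2 change -0.34, SE 0.080, adjusted p = 0.030). Both lie near the threshold. With 1 library left out, Slc11a2 passed only without Con-Veh 1 (0.049) or Con-DHT 4 (0.028), and Slc39a8 only without Con-Veh 2 (0.036) or Con-DHT 3 (0.0498). Cp, the ferroxidase that helps load iron onto transferrin and an acute phase protein, was 16857 ± 2085 and 12395 ± 543 (log2 change -0.44, SE 0.10, adjusted p = 0.032), and -0.29 without Con-Veh 1 and 2 (adjusted p = 0.20). With 1 library left out, Cp passed only without Con-Veh 3 (0.026) or Con-DHT 4 (0.0497). None of these 3 passed under spike-in scaling or with equal totals without Mup genes (adjusted p of 0.13 for Slc11a2, 0.091 for Slc39a8 and 0.063 for Cp). Without Con-Veh 1 and 2 together none of the 3 passed either. Slc11a2 also lost its call with quantile normalization, with a mean of at least 50 and without the intensity trend. Slc39a8 lost its call without the intensity trend, and both Slc39a8 and Cp lost theirs with the replicate number as a block.

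The genes that sense cellular iron did not pass. Ireb2, which encodes iron regulatory protein 2, was 975 ± 88.9 in Con-Veh and 1250.5 ± 139 in Con-DHT (log2 change 0.36, SE 0.097, limma adjusted p = 0.054). It passed with DESeq2 (adjusted p = 0.019), with quantile normalization, with equal totals without Mup genes and with array weights. It also passed without Con-Veh 3 (0.042) and without Con-DHT 3 (0.035). Aco1, the source of iron regulatory protein 1, had a log2 change of 0.046 (adjusted p = 0.85), Fbxl5, which marks iron regulatory protein 2 for degradation, one of 0.037 (adjusted p = 0.81), and Ncoa4, which delivers ferritin to lysosomes, one of 0.025 (adjusted p = 0.88). The importer Slc39a14 had a log2 change of -0.25 (adjusted p = 0.38). Iron-sulfur cluster assembly gave 0 of 20 genes past the test, beside 7.21% of all genes, with a median of 0.017. Equal totals without Mup genes called 1 of them as higher.

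In all, 6 of 115 tested genes of the pathway lists passed, beside 7.21% called over all genes. They were 1 higher and 5 lower, beside 4.60% and 2.61% of all genes. The split depended on the scaling, since equal totals without Mup genes called 7, all higher, of which 1 (Abcg2) was shared. DESeq2 called 20 of the 115, 15 of them lower. Of 10 markers of sinusoidal endothelial cells, which make the BMPs, 2 were lower, beside 2.61% of all genes. Their sums were 5268 to 5985 in Con-Veh and 4119.6 to 5087 in Con-DHT, and without Con-Veh 1 and 2 none passed. Of the 10 hepatocyte markers none passed, beside 7.21% of all genes.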

How the data were processed

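RNA-seq libraries of 8 livers were grouped by the labels, 4 per group. Per the submitters' processing notes, the authors used Trimmomatic, STAR, featureCounts and DESeq2 with GRCm39. The deposited signal is the read count per gene after division by the library's DESeq2 size factor, and 100% of values came out as whole reads (tolerance 0.05). A deposited value of 2.61 to 3.30 corresponds to 3 reads. Genes averaging 10 or more (14312) were tested with limma 3.58.1 (R 4.3.3) on log2(value + 1), which understates changes of low genes. The variance was allowed a trend with intensity, and p-values were adjusted over all genes by Benjamini-Hochberg, with 0.05 as the threshold. The count tests edgeR 4.0.16 and DESeq2 1.42.0 on the recovered reads were alternatives and called 1024 and 1569 genes. Libraries of a group differed by a chi-square per degree of freedom of 19.2 to 61.6, so each counted once. Whether replicates were separate in more than the mouse was not given, and p-values measure the spread between these mice. Scripts were tested on simulated data. The 10 genes and the lists were chosen with earlier results of these data known. Genes named in the text are the 10, every called gene of the pathway lists, a set of regulators named by function and the 3 genes most like each hepcidin. Neo1, Stat3, Creb3l3, Cpox, Apcs, Crp, Fga, Fgb, Fgg and Saa3 were named after their values were seen. They are left out of the counts over named genes below. Symbols matched 14287 of 14317 identifiers. Positions are from GENCODE M21 (GRCm38), not the authors' build, and were matched by identifier. Protein sequences were not used here. Some items of the genotype and of the named genes are not reported here.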

Additional observations from a re-analysis of the deposited data

Results flagged for a closer look

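In 7 of 76 groups of 4 libraries, each of 1 gene in 1 group, a single liver stood far from the others, with a gap to its nearest neighbour that exceeded Dixon's 95% critical share of the group's range, and chance gives this in about 1 in 20 groups. Of the 10 genes, Tfrc was 502 in Con-Veh 4 against 324 to 332 in the other Con-Veh livers, and Alas2 was 597 in Con-DHT 3 against 891 to 943 in the other Con-DHT livers. Con-DHT 3 was also apart for Hpx, at 51817 against 31451 to 32188, and for Saa1, at 3054 against 285 to 519.97. Aco1 was 2697 in Con-Veh 1 against 3252 to 3326. Bmp2 was 251 in Con-DHT 2 against 187 to 197, and Hjv was 999.7 in Con-DHT 1 against 1292 to 1311.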

How the results depend on the processing

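The 1032 calls over all genes became 648 with a mean of at least 50, 636 with spike-in scaling, 1569 with DESeq2, 509 without Con-Veh 1 and 2 together (added after seeing the data) and 638 to 897 when 1 library was left out. The share of calls that were higher was 63.8%, and 83.9% with equal totals without Mup genes, 88.2% with spike-in scaling and 79.0% without Con-Veh 1 and 2. Of the 10 genes, 1 was called, and 2 with spike-in scaling, 4 with DESeq2 and 1 to 2 with 1 library left out. Of the 115 pathway genes, 6 were called, and 3 without the intensity trend, 20 with DESeq2, 3 without Con-Veh 1 and 2 and 2 to 7 with 1 library left out. Both log2 ratios kept their direction and stayed short of the threshold, with -2.81 to -1.16 for Hamp2 to Hamp and 0.057 to 0.16 for Fth1 to Ftl1 when 1 library was left out.

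The replicate numbers are shared between groups but mark different mice, and the correlations of same-numbered deviations were -0.19, -0.0060, -0.022 and -0.076. With the number as a replicate block, 700 genes, 3 pathway genes and 1 of the 10 were called, Slc40a1 (adjusted p = 0.040) in place of Trf (adjusted p = 0.070), and exact sign-flip p-values for the ratios were 0.5 and 0.13, the latter the smallest that 16 sign patterns allow.

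Over 38 named genes and 21 alternatives each, 680 of the 798 fits kept direction and side of the threshold, 48 lost the call, 20 gained one and 50 changed sign. All that changed sign had an adjusted p above the threshold. Under spike-in scaling and equal totals without Mup genes they moved with the median of all genes, from -0.0081 to 0.19 and 0.090, and for the other settings the cause was not tested. Spike-in scaling gave log2 changes of 0.090 for Tfrc, 0.066 for Fth1, 0.13 for Alad, 0.17 for Bmp2, 0.040 for Hfe, 0.20 for Hjv, 0.069 for Ppargc1a, 0.084 for Smad6 and 0.077 for Smad7. Equal totals without Mup genes gave 0.026 for Alad, 0.068 for Bmp2 and 0.095 for Hjv. Without Con-Veh 1 and 2 the values were -0.025 for Aco1, 0.099 for Bmp2, -0.086 for Id1, 0.064 for Ppargc1a, 1.16 for Saa1, 0.030 for Slc39a14, 0.0038 for Smad7 and 0.043 for Socs3. Id1 was -0.13 with DESeq2, -0.12 with edgeR, -0.0055 with a pseudocount of 5 and -0.052 with quantile normalization, Hjv was 0.0042 with edgeR and 0.016 with quantile normalization, and Ppargc1a was 0.018 with array weights. With 1 library left out, estimates that changed sign ranged from -0.040 to 0.13 for Aco1, -0.13 to 0.094 for Bmp2, -0.027 to 0.11 for Fech, -0.045 to 0.092 for Hjv, -0.25 to 0.29 for Id1, -0.013 to 0.067 for Ncoa4, -0.34 to 0.059 for Ppargc1a, -0.25 to 0.0065 for Smad6, -0.25 to 0.063 for Smad7 and -0.20 to 0.045 for Tfrc. The fewest reads behind a value of the 10 genes were 9, for Hamp2 in Con-DHT 4.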
